A study of Homo sapiens with 6 samples.

Results

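PTGDS encodes lipocalin-type prostaglandin D2 synthase, and LCNL1 encodes a lipocalin-like protein from the gene that follows it on chromosome 9. Both were examined beside 8 further genes of prostaglandin synthesis and breakdown: PLA2G4A, PTGS1, PTGS2, PTGES, PTGES2, PTGES3, PTGIS and HPGD. These 10 genes, out of 58051 in the count files, were chosen by name. PTGDS and LCNL1 were chosen because they rose in these libraries, so their values are a description without a test. The enzymes were taken for their place in the pathway.

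The cells were A172, an established human glioblastoma line, grown in serum-containing medium. All 6 samples came from stable lines made by lentiviral transduction with a pLX317 expression construct. It carried GFP in the 3 control samples and RBFOX1 in the 3 others. RBFOX1 is a neuronal and muscle RNA-binding protein that regulates splicing and RNA stability. Controls and RBFOX1 lines therefore share the vector backbone, the type of virus and the described culture, and the expressed protein differs. The GFP and RBFOX1 viruses and lines were made separately. Other differences between the lines cannot be told apart from that of the protein. The study describes 3 biological replicates per construct. The sources do not say whether each replicate was a separately made line, or whether any line was a single clone. Strand-specific, rRNA-depleted total RNA was sequenced and counted per gene, giving 7433414 to 23249221 counts on genes per library. RBFOX1 itself had 4, 0 and 1 counts in the GFP libraries and 10276, 16467 and 21451 counts in the RBFOX1 libraries, in the direction of the labels. GFP replicate 1 stood furthest from its group: its counts differed from those of the other GFP libraries 8.08 and 8.23 times as much as sampling noise alone would give (chi-square over degrees of freedom), compared with 1.60 to 2.80 times for the other pairs within a group.

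Prostaglandins are short-range lipid signals made from arachidonic acid. Phospholipase A2 enzymes release arachidonic acid from membranes, the cyclooxygenases PTGS1 and PTGS2 convert it to prostaglandin H2, and terminal synthases turn that intermediate into prostaglandin D2, E2, F2 alpha, prostacyclin or thromboxane, each read by its own G-protein-coupled receptors. PTGDS is both such a synthase and a secreted carrier of small hydrophobic molecules, and in the brain it is known from oligodendrocytes, choroid plexus and leptomeninges and as an abundant protein of cerebrospinal fluid.

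PTGDS lies at chr9:136975092-136981742 on the plus strand of GRCh38, and LCNL1 at chr9:136981904-136986410 on the same strand, 161 bases past the annotated end of PTGDS. The 161 bases separate the annotated spans, and the RefSeq start of LCNL1 lies further on, at 136982993. The 250 bases before the RefSeq start of PTGDS, at chr9:136977254-136977503 (GRCh38.p14, plus strand), are shown because PTGDS had the largest change in counts among these genes. This start, at 136977504, lies inside the wider span annotated for the gene. Capitals would mark the letters of 5 motifs, searched on both strands, and there was no match. The TATA box was searched as TATAAA. The letters CCAAT stood for the box of that name, and GGGCGG for the GC box. The E-box was searched as CACGTG. The AP-1 element was searched as TGANTCA.

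PTGDS, bases before the start: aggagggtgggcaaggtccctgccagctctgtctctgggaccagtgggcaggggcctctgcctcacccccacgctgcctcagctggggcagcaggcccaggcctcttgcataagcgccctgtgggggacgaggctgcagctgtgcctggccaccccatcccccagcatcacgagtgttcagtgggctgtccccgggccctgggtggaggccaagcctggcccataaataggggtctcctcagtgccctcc

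Of 35116 RefSeq windows of the same length, 10.7% held the letters of the TATA box, 32.0% those of the CCAAT box, 42.6% those of the GC box, 6.34% those of the E-box and 6.57% those of the AP-1 element. The window was 68.4% G and C. Variants of these letters, such as other TATA-like sequences, were not searched, and the letters only describe the window.

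RBFOX proteins are known to bind the RNA motif written TGCATG in DNA letters. The motif was found in the annotated 3′ UTR of 5131 of 14049 tested protein-coding genes (36.5%), whose median 3′ UTR was 1298 bases long. Among the 10 genes it was found once in PTGS2, once in PTGES3 and once in PLA2G4A, and not in PTGDS (164 bases), LCNL1 (747), PTGS1 (3159), PTGES (1262), PTGES2 (452), PTGIS (4046) or HPGD (1781). The 3 sites are shown with 10 bases on each side, 5′ to 3′ on the transcribed strand and with the motif in capitals. They lie at chr1:186673113-186673118 on the minus strand for PTGS2, chr12:56664254-56664259 on the minus strand for PTGES3 and chr1:186988647-186988652 on the plus strand for PLA2G4A.

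PTGS2: cctggctaccTGCATGctgttccttt

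PTGES3: aataaccttaTGCATGaacatttccc

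PLA2G4A: gttacttagcTGCATGagaataatac

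PTGDS (ENSG00000107317) went from near the limit of detection to an abundant transcript. It had 5, 2 and 2 counts in the GFP libraries and 959, 1668 and 2006 counts in the RBFOX1 libraries. After scaling to effective library size (normalized counts), its level was 3.04, 2.34 and 2.11 in the GFP libraries and 1739, 1852 and 1832 in the RBFOX1 libraries. The groups were far apart, and the RBFOX1 libraries resembled each other closely. The means were 2.49 ± 0.484 (SD, n = 3) and 1808 ± 59.9 (SD, n = 3), a ratio of summed counts of 698 with an exact 95% counting interval of 367 to 1527. The fitted log2 fold change was 9.37 (SE 0.13). In bulk libraries, more cells with the gene switched on and more of its RNA per cell cannot be told apart. Leaving out any 1 library or changing the normalization, tool or filter kept it between 9.23 and 9.59.

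The rank of PTGDS among genes changed accordingly. Per kilobase of annotated exon, PTGDS stood at rank 12964 to 13277 of 19629 protein-coding genes in the GFP libraries. In the RBFOX1 libraries it stood at rank 767, 754 and 746, above 96.1% to 96.2% of protein-coding genes. On this per-length scale, PTGDS made up 0.0791% to 0.14% of the summed level of the 10 genes in the GFP libraries and 38.5%, 38.3% and 39.4% in the RBFOX1 libraries. The summed level of the other 9 genes ranged from 799 to 1007 normalized counts per kb in the GFP libraries and from 1024 to 1098 in the RBFOX1 libraries. Most of the difference in the total therefore lay in PTGDS. The lengths are the union of all annotated exons and are an approximation for genes with many transcripts, LCNL1 with its retained-intron transcripts among them.

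LCNL1 (ENSG00000214402) was not counted in any GFP library and had 57, 100 and 105 counts in the RBFOX1 libraries. Its normalized level was 103, 111 and 95.9, with a mean of 103 ± 7.57 (SD, n = 3). Against a floor of 3 counts in each GFP library, LCNL1 was at least 36.6-fold higher in the RBFOX1 libraries. Per kilobase it stayed well below its neighbour, at 25.5, 27.4 and 23.7 normalized counts per kb, where PTGDS stood at 641, 683 and 675.

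LCNL1 took a similar share of the combined counts of both genes in each RBFOX1 library. The share was 5.61% in replicate 1, 5.66% in replicate 2 and 4.97% in replicate 3, with exact 95% binomial intervals of 4.28% to 7.21%, 4.63% to 6.84% and 4.09% to 5.99%. The 3 intervals overlap. The intervals cover counting error only. In the GFP libraries 0 LCNL1 counts beside 2 to 5 PTGDS counts do not define a share. Because both genes are on the same strand, counting by strand does not separate LCNL1 transcripts from RNA that continues past the end of PTGDS, and this was not tested.

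**Figure D1:**
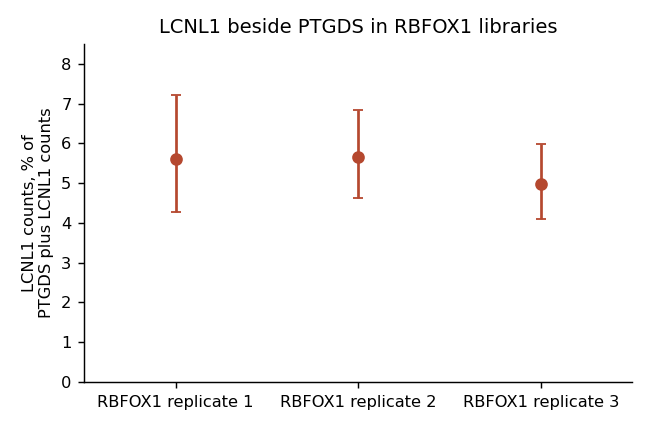
Share of LCNL1 in the summed counts of PTGDS and LCNL1 (y axis, percent, from 0) in each of the 3 RBFOX1 libraries (x axis). Points are the shares and bars the exact 95% binomial intervals; the shares run from 4.97% to 5.66% and the intervals overlap.

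The remaining 8 enzymes were called in either direction or not at all. Across the table of 20536 genes with at least 10 summed counts, 46.6% passed edgeR's quasi-likelihood test at a Benjamini-Hochberg adjusted p under 0.05, 23.7% as higher and 22.9% as lower in the RBFOX1 libraries, and the normalized counts of 53.4% did not overlap between groups. Of the 8 enzymes 4 had at least 10 summed counts in each group, of which PTGES2 rose, PLA2G4A fell, and PTGES and PTGES3 did not pass. PTGS1, PTGIS and HPGD also entered the test, where PTGIS was called higher, but they had under 10 summed counts in the GFP libraries. PTGIS entered only through its counts in the RBFOX1 libraries. In all, 7 were tested and 42.9% were called, near the share among all genes.

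PLA2G4A and the cyclooxygenase genes PTGS1 and PTGS2 had few counts. PLA2G4A, the cytosolic phospholipase A2 that releases arachidonic acid, had 27, 9 and 11 counts in the GFP libraries and 4, 6 and 3 in the RBFOX1 libraries. Its normalized level was 16.4, 10.5 and 11.6 against 7.26, 6.66 and 2.74, so that every RBFOX1 library was below every GFP library. It fell by 1.37 on the log2 scale (SE 0.43, adjusted p = 0.0122), with a ratio of summed counts of 0.375 (exact 95% counting interval 0.186 to 0.704). The call was lost without GFP replicate 1 (adjusted p = 0.0882), without RBFOX1 replicate 3 (adjusted p = 0.112) and with DESeq2 (adjusted p = 0.132), and the gene was too low for edgeR's filterByExpr.

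PTGS1, the constitutive cyclooxygenase, had 7, 0 and 2 counts in the GFP libraries and 1, 1 and 7 in the RBFOX1 libraries. The groups overlapped and the log2 fold change of 0.43 (SE 0.80) did not pass the test (adjusted p = 0.704). PTGS2, the inducible cyclooxygenase, had 1 count in GFP replicate 2 and 0 in the other 5 libraries, and it was below the filter. The counting limit was wide: the exact 95% interval of the ratio of summed PTGS1 counts ran from 0.477 to 3.85, so that changes within it, in either direction, were not detectable at this depth.

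Of the 3 prostaglandin E synthase genes, 1 passed the test. PTGES, the inducible microsomal prostaglandin E synthase, stood at 16.9 ± 4.74 normalized counts in the GFP libraries and 11.6 ± 4.15 in the RBFOX1 libraries (SD, n = 3 each), with overlapping groups and an adjusted p of 0.271. PTGES2, the membrane-associated prostaglandin E synthase, had normalized counts of 705, 680 and 634 in the GFP libraries and 765, 836 and 894 in the RBFOX1 libraries. The groups did not overlap, and PTGES2 rose 1.24-fold (log2 0.31, SE 0.068, adjusted p = 0.0008). PTGES3, the cytosolic prostaglandin E synthase that is also the HSP90 co-chaperone p23, was the most abundant of the 10 genes per length in every library, at 804 ± 118 normalized counts per kb in the GFP libraries and 881 ± 34.3 in the RBFOX1 libraries (SD, n = 3 each). Its log2 fold change of 0.14 did not pass (adjusted p = 0.149), although it did without GFP replicate 2 (adjusted p = 0.031).

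PTGIS, the prostacyclin synthase, had 1, 4 and 0 counts in the GFP libraries and 3, 9 and 15 in the RBFOX1 libraries. Its normalized counts of 0.607, 4.67 and 0 against 5.44, 9.99 and 13.7 did not overlap, but the nearest values of the groups were less than 1 normalized count apart. The ratio of summed counts was 7.32 (exact 95% counting interval 2.78 to 24.3). PTGIS passed the filter only through the RBFOX1 libraries, where it is high, so these values are a description. HPGD, the 15-hydroxyprostaglandin dehydrogenase that begins prostaglandin breakdown, had 5, 2 and 1 counts against 2, 1 and 3, with an adjusted p of 0.979.

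**Figure D2:**
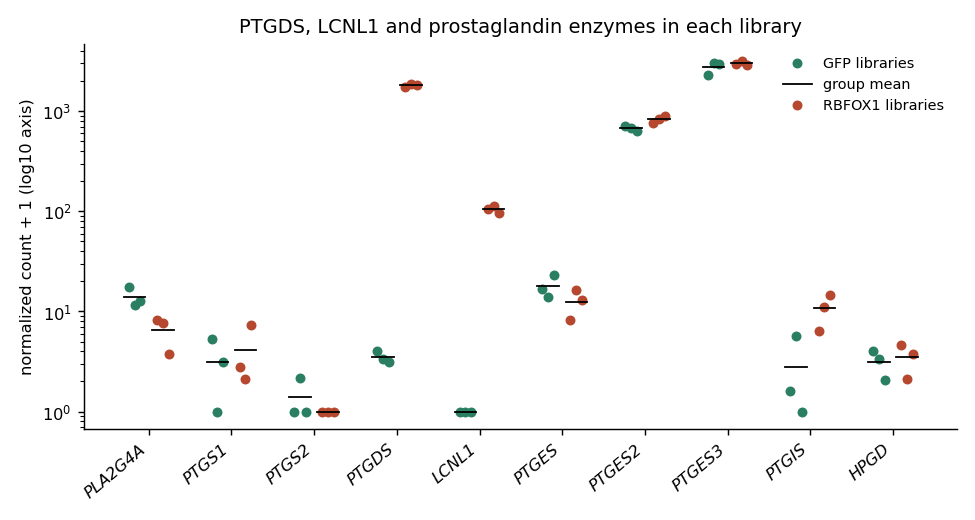
Normalized counts plus 1 (y axis, log10 scale) of the 10 genes (x axis) in the 3 GFP and 3 RBFOX1 libraries. Points are libraries and lines the group means; PTGDS rises from a mean of 2.49 to 1808 and LCNL1 from 0 to 103, while PTGES2 and PTGES3 differ by 1.24-fold or less.

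Other genes whose enzymes act on prostaglandin H2 or on the prostaglandins made from it fell or did not pass. Of 8 listed 7 were tested, of which 0 rose, 5 fell and 2 did not pass, with 71.4% called beside 46.6% of all genes and a median log2 fold change of -0.47 beside 0.0051. The 5 that fell were among 6 genes with at least 10 summed counts in each group. AKR1C3, the aldo-keto reductase that makes prostaglandin F2 alpha and reduces prostaglandin D2, fell by 1.69 on the log2 scale (SE 0.061, adjusted p = 1.44e-14). Its normalized counts were 1397, 1355 and 1334 in the GFP libraries and 404, 440 and 421 in the RBFOX1 libraries. TBXAS1, the thromboxane synthase, stood at 37.0, 32.7 and 34.8 against 10.9, 12.2 and 20.1 and fell by 1.20 (SE 0.26, adjusted p = 0.000589). CBR1, the carbonyl reductase that converts prostaglandin E2 to F2 alpha, fell by 0.77 (SE 0.077, adjusted p = 6.12e-08), and CBR3 and AKR1B1, 2 further reductases looked up after their values were seen, fell by 0.47 and 0.26. HPGDS, the hematopoietic prostaglandin D2 synthase, had 0 counts in all 6 libraries, so that PTGDS was the only prostaglandin D2 synthase gene detected.

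For arachidonate release and reacylation, 18 genes were listed and 15 tested, of which 2 rose, 6 fell and 7 did not pass. That is 53.3% called, near the 46.6% over all genes tested, with a median log2 fold change of -0.03, also with PLA2G3 at its lower bound. Among the 12 genes with at least 10 summed counts in each group, 1 rose and 5 fell. MBOAT7, the acyltransferase that puts arachidonate back into phosphatidylinositol, had 3919 ± 107 normalized counts in the GFP libraries and 2397 ± 103 in the RBFOX1 libraries (SD, n = 3 each) and fell by 0.71 on the log2 scale. MGLL, the monoacylglycerol lipase that frees arachidonate from 2-arachidonoylglycerol, fell by 0.53 on the log2 scale (SE 0.056, adjusted p = 1.12e-07), and the lysosomal phospholipase gene PLA2G15 fell by 0.51 (SE 0.080, adjusted p = 2.06e-05). DAGLB, a diacylglycerol lipase that makes 2-arachidonoylglycerol, rose by 0.47 (SE 0.083, adjusted p = 8.65e-05). The other gene called higher, the secreted phospholipase gene PLA2G3, named after its values were seen, had 0 counts in the GFP libraries and 1, 6 and 10 in the RBFOX1 libraries, at least 2.08-fold higher against the floor of 3 counts in each GFP library.

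Of the 9 prostanoid receptor genes, 4 had at least 10 summed counts in each group, and all 4 (PTGFR, TBXA2R, PTGER4 and PTGIR) rose, with log2 fold changes of 0.41, 0.82, 1.42 and 2.11. Over all genes tested 46.6% were called, 23.7% as higher. Both shares include genes that miss the cut applied to the 4 receptors. No share at that cut was computed, so neither is a matched comparison for these receptors. PTGDR2, PTGER1 and PTGER2 passed the filter only through the RBFOX1 libraries, where they are high, so their values are given as a description. PTGDR and PTGER3 were below the filter.

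PTGDR, the DP1 receptor for prostaglandin D2, had 0 counts in every library. PTGDR2, the DP2 receptor, had 0, 1 and 1 counts in the GFP libraries and 2, 5 and 8 in the RBFOX1 libraries, a ratio of 10.2 (exact 95% counting interval 2.36 to 91.6).

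PTGIR, the prostacyclin receptor, had 24.3, 15.2 and 13.7 normalized counts in the GFP libraries and 68.9, 81.0 and 91.3 in the RBFOX1 libraries. The groups were well separated and PTGIR rose 4.32-fold (log2 2.11, SE 0.21, adjusted p = 5.62e-08). PTGER4, the EP4 receptor for prostaglandin E2, had 16.4, 22.2 and 13.7 normalized counts against 45.3, 48.9 and 43.8 and rose 2.67-fold (adjusted p = 2.40e-05).

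PTGER2, the EP2 receptor for prostaglandin E2, had 4, 4 and 1 counts against 10, 13 and 21, a ratio of 6.63 (exact 95% counting interval 3.19 to 15.4). TBXA2R, the thromboxane receptor, rose 1.77-fold, from 103 ± 10.8 to 183 ± 22.5 normalized counts (SD, n = 3 each, adjusted p = 1.01e-05). PTGFR, the prostaglandin F2 alpha receptor, rose 1.33-fold, from 373 ± 9.0 to 494 ± 41.2 (SD, n = 3 each, adjusted p = 0.000124).

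Both other EP receptor genes stayed near the floor. PTGER1 had 1, 1 and 1 counts in the GFP libraries and 0, 4 and 6 in the RBFOX1 libraries. PTGER3 had 0, 1 and 0 counts against 3, 4 and 1 and was below the filter.

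**Figure D3:**
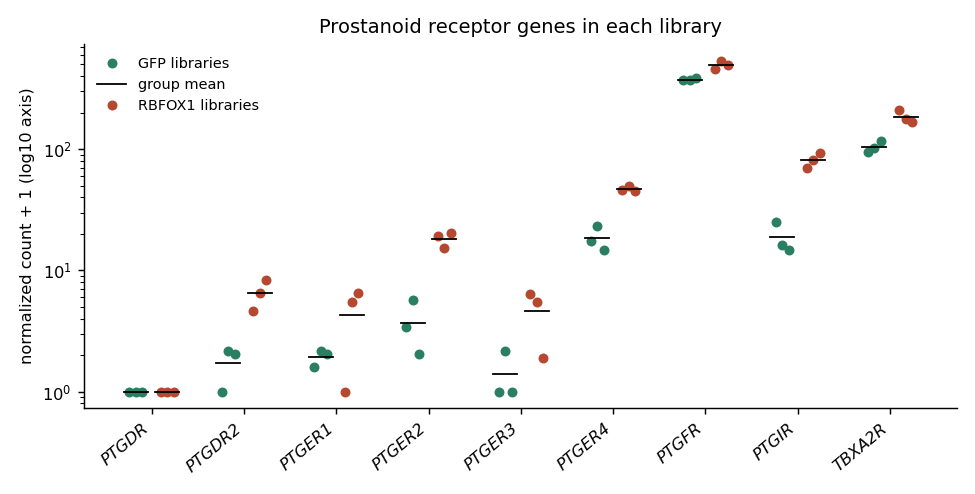
Normalized counts plus 1 (y axis, log10 scale) of the 9 prostanoid receptor genes (x axis) in the 3 GFP and 3 RBFOX1 libraries. Points are libraries and lines the group means; PTGIR, PTGER4, TBXA2R and PTGFR are higher in every RBFOX1 library than in any GFP library, and PTGDR is at 0 throughout.

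All 7 listed genes of prostaglandin transport and inactivation were tested. Of these 7, 85.7% were called, beside 46.6% over all genes tested. Among the 6 with at least 10 summed counts in each group 2 rose, 3 fell and 1 did not pass. ABCC4, an exporter of prostaglandins from the cell, rose 1.40-fold, from 965 ± 12.2 to 1355 ± 31.7 normalized counts (SD, n = 3 each, adjusted p = 2.10e-07). SLCO2A1, the prostaglandin uptake transporter, named after its values were seen, had 3, 1 and 0 counts in the GFP libraries and 12, 20 and 15 in the RBFOX1 libraries, with a ratio of 15.9 (exact 95% counting interval 5.82 to 60.9), and it entered the test only through the RBFOX1 libraries. PTGR1, which reduces the products of HPGD, fell by 1.02 (SE 0.26, adjusted p = 0.00255), and PTGR3, a related reductase, rose by 0.21 (adjusted p = 0.0288), a call lost under 6 of 12 alternative settings, the omission of any GFP replicate or of RBFOX1 replicate 1 among them.

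AKR1C1 had 698, 704 and 633 normalized counts in the GFP libraries and 87.1, 107 and 87.7 in the RBFOX1 libraries, and fell by 2.85 (SE 0.095, adjusted p = 4.32e-15). AKR1C2 fell by 2.21 (SE 0.12, adjusted p = 3.63e-12). Both encode hydroxysteroid dehydrogenases that also act on prostaglandins. AKR1C1, AKR1C2 and AKR1C3 are closely related paralogs, so that their reads may be misplaced or left uncounted and their separate values are uncertain.

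**Figure D4:**
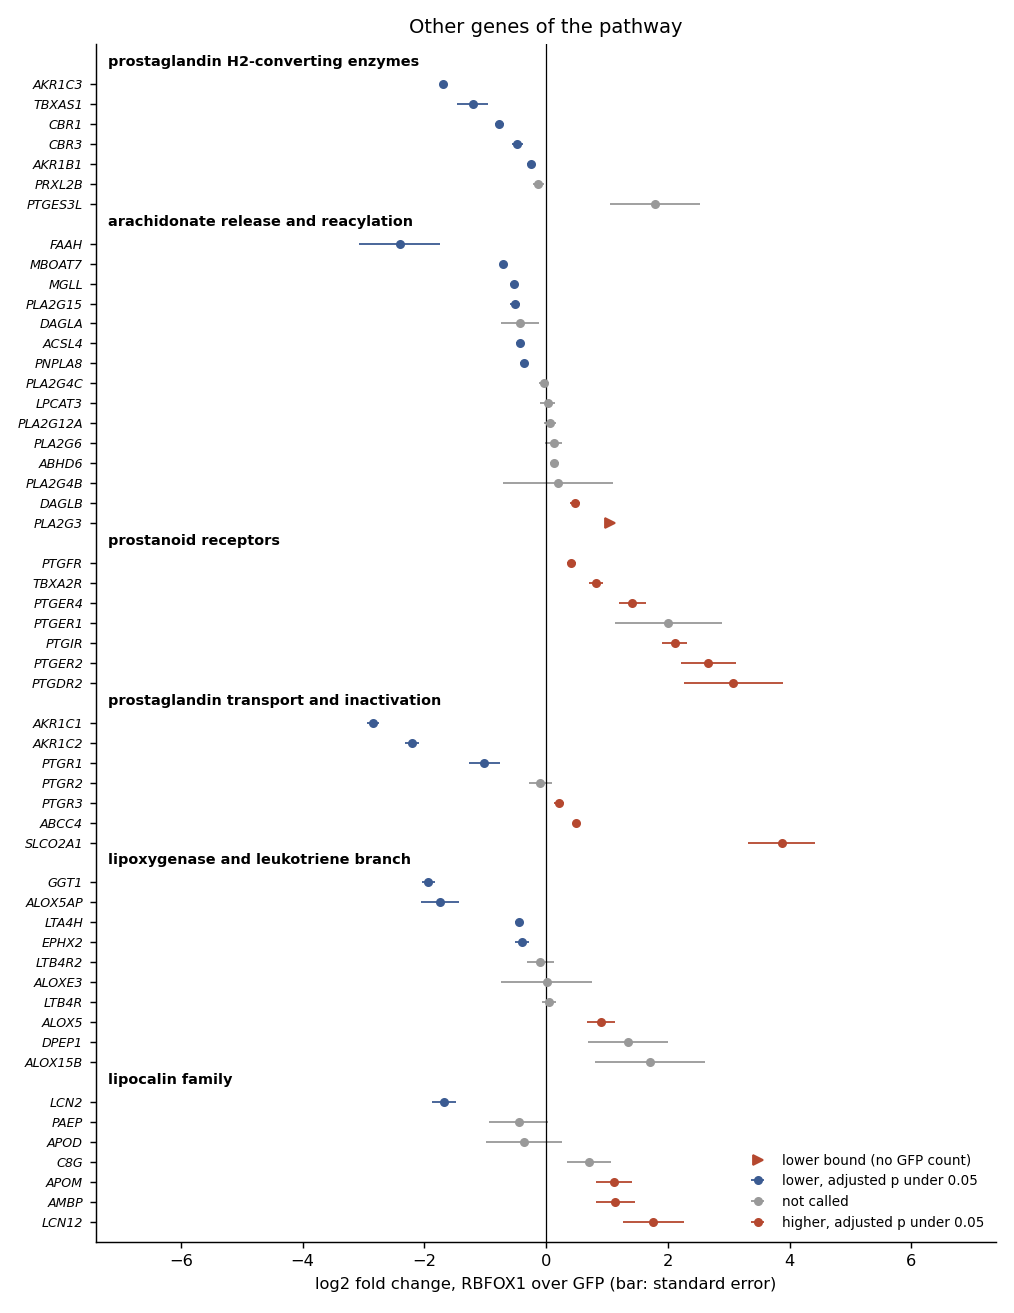
Fitted log2 fold change of RBFOX1 over GFP (x axis) with its standard error for the 53 tested genes of 6 lists (y axis), coloured by the edgeR call; PLA2G3, with no GFP count, is at its lower bound. The 4 receptor genes with at least 10 summed counts in each group (PTGFR, TBXA2R, PTGER4 and PTGIR) are called higher. PTGDR2, PTGER1, PTGER2, SLCO2A1, PLA2G3 and PTGES3L entered the test only through the RBFOX1 libraries. Of 7 tested prostaglandin H2-converting enzymes 5 are called lower.

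Of 19 genes of the lipoxygenase and leukotriene branch 10 were tested, of which 1 rose, 4 fell and 5 did not pass, and the 50% called was near the 46.6% over all genes tested. GGT1, the gamma-glutamyltransferase that trims leukotriene C4, was down to 90.7 ± 9.56 from 345 ± 16.4 normalized counts (SD, n = 3 each, adjusted p = 4.75e-12). LTA4H, the leukotriene A4 hydrolase, fell by 0.45 (SE 0.059, adjusted p = 2.34e-06), EPHX2, a soluble epoxide hydrolase, fell by 0.40 (SE 0.12, adjusted p = 0.0105, but 0.0605 without GFP replicate 1), and ALOX5, the 5-lipoxygenase, rose by 0.90 (SE 0.23, adjusted p = 0.00317). Over all 6 lists 53 of 79 genes were tested, of which 15 rose and 19 fell. With at least 10 summed counts in each group there were 42 genes, of which 11 rose and 18 fell.

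Of 18 further members of the lipocalin family, to which PTGDS belongs, 7 were tested, and 3 rose, 1 fell and 3 did not pass (57.1% called, beside 46.6% over all genes). LCN2, a secreted binder of bacterial siderophores, fell by 1.68 on the log2 scale, with 59.6 ± 0.552 normalized counts in the GFP libraries and 19.0 ± 2.67 in the RBFOX1 libraries, and APOM, a carrier of sphingosine-1-phosphate, rose from 13.6 ± 5.43 to 30.7 ± 7.11 (SD, n = 3 each). The largest fitted log2 fold change among these 7 was 1.76, in LCN12.

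Within 200 kb of PTGDS, 45 genes other than PTGDS and LCNL1 were annotated and 28 were tested, of which 9 rose, 5 fell and 14 did not pass. The 50% called was near the 46.6% over all genes tested, and the median log2 fold change was 0.19. The nearest tested gene before PTGDS was the lipocalin gene LCN12, 19594 bases away, with 7, 2 and 3 counts in the GFP libraries and 2, 11 and 18 in the RBFOX1 libraries. It rose (log2 1.76, SE 0.50, adjusted p = 0.00671) with overlapping groups, and not without RBFOX1 replicate 3 (adjusted p = 0.0959) or with DESeq2 (adjusted p = 0.0706). The next ones were C8G, a complement component, which did not pass (adjusted p = 0.118), and FBXW5, a ubiquitin ligase subunit, which fell by 0.39 (adjusted p = 4.43e-05).

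After LCNL1, the nearest tested genes were PAXX, a DNA end-joining factor 10679 bases past PTGDS, which rose by 0.42 (SE 0.076, adjusted p = 0.000102), and CLIC3, a chloride intracellular channel protein 12865 bases past PTGDS. CLIC3 rose 5.72-fold, from 47.5 ± 4.71 to 273 ± 21.4 normalized counts (SD, n = 3 each, adjusted p = 7.00e-13). ABCA2, a lipid transporter and the third in this direction, fell by 0.49 (SE 0.070, adjusted p = 8.30e-06).

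**Figure D5:**
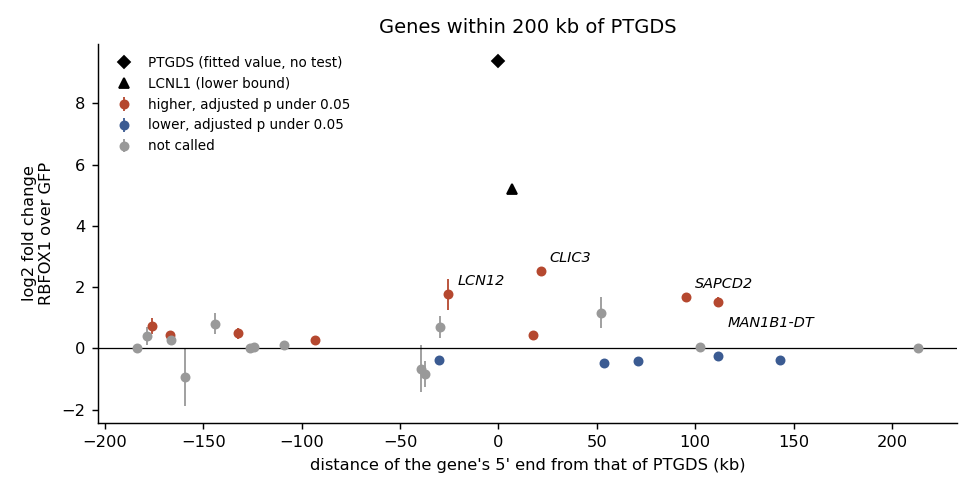
Log2 fold change of RBFOX1 over GFP (y axis; bars are standard errors) against the distance of each tested gene's 5′ end from that of PTGDS (x axis, kb) for genes within 200 kb. PTGDS is at 9.37 and LCNL1 at its lower bound of 5.19; the other labelled genes, LCN12, CLIC3, SAPCD2 and MAN1B1-DT, were picked after their values were seen and lie between 1.51 and 2.52.

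By the root mean square difference between profiles of log2(normalized count + 1), each centred on its own mean over the 6 libraries, the genes most like PTGDS among 14093 protein-coding genes were CPA1 (0.34), PPP1R1B (0.72), POSTN (0.77), CUZD1 (1.04) and LCNL1 (1.17). CPA1, a pancreatic carboxypeptidase, had 0 counts in the GFP libraries and 168, 297 and 423 in the RBFOX1 libraries. POSTN, the matrix protein periostin, had 5, 0 and 3 counts against 434, 741 and 813. PPP1R1B, the phosphatase inhibitor DARPP-32, and CUZD1, a zona pellucida-domain protein, were also at 0 in every GFP library, so their distance from PTGDS depends on the pseudocount of 1.

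Markers of the cell types in which PTGDS is known were in part absent, and some of them rose. Over all genes tested 46.6% were called, 23.7% as higher and 22.9% as lower. Of 9 oligodendrocyte markers, MOG, MAG, MOBP, SOX10 and OLIG1 had 0 counts in all libraries and 2 of 4 tested rose; their summed level was 26.1 to 45.3 normalized counts in the GFP libraries and 50.8 to 77.6 in the RBFOX1 libraries. Of 7 choroid plexus markers, TTR and OTX2 were at 0, and 2 of 3 tested rose and 1 fell; the summed level, mostly AQP1, was 102 to 119 in the GFP libraries and 495 to 568 in the RBFOX1 libraries. Of 9 leptomeningeal fibroblast markers, SLC22A6 was at 0 and 3 of 7 tested rose and 2 fell; the summed level, mostly the collagen gene COL1A2, was 2494 to 2601 and 12985 to 14943.

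Of 6 melanocyte markers, a further cell type known for PTGDS, TYR was at 0 and 2 of 4 tested rose; the summed level, mostly MITF, was 260 to 291 and 762 to 832. The part of these genes in the rise of PTGDS was not tested. Of the 12 markers chosen for the glioblastoma line, 3 rose and 6 fell of 11 tested. Over all genes tested 23.7% were called higher and 22.9% lower. The summed level of these markers was 113739 to 114530 in the GFP libraries and 65617 to 66942 in the RBFOX1 libraries. VIM and CD44 were abundant and were called lower (log2 fold changes -0.65 and -0.90). CHI3L1, named after its values were seen, had the largest rise of the list (log2 6.60). The glial markers GFAP and S100B, at 0 to 4 counts, were near absent in both groups.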

How the data were processed

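Per the labels and the study's methods, the authors prepared stranded, rRNA-depleted total RNA libraries from 6 A172 samples (3 GFP, 3 RBFOX1). They used HISAT2 for alignment of paired-end reads to GRCh38, and took gene counts with HTSeq (intersection-strict, Ensembl release 87). Tool versions are not given in the sources used here. The deposited values are raw counts, without normalization. A further deposited table holds the authors' own fold changes and p-values and was not used. Entries without a gene were left out of library sizes: 52.0% to 61.9% of read pairs were counted on genes, 6.89% to 9.35% overlapped more than 1 gene, and 16.8% to 27.0% were in HTSeq's class of low alignment quality.

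Groups were taken from the treatment labels. RBFOX1 was compared with GFP in edgeR 4.0.16 (R 4.3.3; TMM, quasi-likelihood test, condition only, two-sided) over 20536 genes with at least 10 summed counts, with Benjamini-Hochberg adjustment and a threshold of 0.05. The SE of a log2 fold change is its size divided by the square root of F. On simulated counts with 200 changed genes, 192 were recovered with 7 false calls. The changed genes all had a mean of at least 20 normalized counts and large changes. Recovery of lower genes or of small changes was therefore not tested. Nor was a share of changed genes as large as the 46.6% called here. Normalized counts are counts divided by effective library size and multiplied by its mean. Positions and exon lengths came from GENCODE 44 (GRCh38), to which 98.1% of gene identifiers matched; promoter sequence came from RefSeq. All p-values rest on 3 replicates per group and measure the spread between them, whether these were separate lines or not. Alternatives were RLE factors, DESeq2 1.42.0, limma-voom (limma 3.58.1), no filter, filterByExpr, a replicate block, and leaving out each library.

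The 10 genes, the lists and the tests were chosen with earlier results of these data known. Named genes were the 10 genes, RBFOX1, the 9 prostanoid receptors, up to 3 largest rises and 3 largest falls per other list among called genes with a mean of at least 20 normalized counts, the 3 nearest tested genes on each side of PTGDS, and the 5 most similar profiles.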

Additional observations from a re-analysis of the deposited data

How the results depend on the processing

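Low counts limit what can be said of PTGS1, PTGS2, HPGD, PTGIS, PLA2G4A and most receptors. HPGD (log2 fold change 0.033) turned to -0.23 without GFP replicate 3, -0.18 without RBFOX1 replicate 1 and -0.14 without RBFOX1 replicate 3, within a range of -0.23 to 0.39 over all libraries left out in turn. PTGS1 (0.43) turned to -0.84 without RBFOX1 replicate 3, within a range of -0.84 to 1.55. Neither passed the test in any setting. Of the 8 enzymes other than PTGDS and LCNL1, the number lower was 1, and 0 with DESeq2 and with filterByExpr, which drops PLA2G4A and PTGIS and leaves 1 higher. The number of lipocalin genes higher was 3, and 1 with DESeq2. The number of prostaglandin H2-converting enzymes higher was 0, and 1 with limma-voom and with no filter. In the main edgeR fit only PTGES3L of that list, named after its values were seen, had a positive log2 fold change (1.79, adjusted p = 0.0535). PTGES3L entered the test only through the RBFOX1 libraries. The number of lipoxygenase genes higher was 1, and 2 with limma-voom, and that of arachidonate genes higher was 2, and 1 with filterByExpr. Leaving out 1 library at a time gave 0 to 1 lower among the 8 enzymes (0 without GFP replicate 1 or RBFOX1 replicate 3), 0 to 1 higher among the H2-converting enzymes (1 without GFP replicate 2 or RBFOX1 replicate 3), 1 to 2 higher in the lipoxygenase branch (2 without GFP replicate 1) and 1 to 2 higher in the arachidonate list (1 without RBFOX1 replicate 3). PTGES3 passed without a filter (adjusted p = 0.0489) and without GFP replicate 2 (adjusted p = 0.031), and EPHX2 did not pass with DESeq2 (adjusted p = 0.0998) or without GFP replicate 1 (adjusted p = 0.0605). Apart from what a stricter filter drops, the cause of these changes was not tested. Same-numbered GFP and RBFOX1 libraries did not deviate together (correlations -0.026, 0.016 and 0.0065), so the numbers were not taken as pairs; with the replicate number as a block, 4588 genes were higher and 4458 lower, against 4869 and 4711 without it, and the counts for the 8 enzymes stayed at 2 higher and 1 lower.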
